A study of Mus musculus with 12 samples.

Results

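The genes that encode the mouse proteasome and the factors bound to it were described across neocortex tissue and cultured neocortical cells. Members were all genes whose symbol begins with Psm, 1 letter from a to g and a digit, and which are listed in both junction tables: 48 of 17463 genes with a symbol in both. They comprise 8 core alpha subunits (Psma1 to Psma8), 7 constitutive core beta subunits (Psmb1 to Psmb7), 3 immunoproteasome beta subunits (Psmb8, Psmb9 and Psmb10), 6 ATPases of the base, 11 non-ATPase subunits of the base and lid, 7 assembly chaperones, 4 activator genes and the inhibitor gene Psmf1. Psmc3ip also meets the rule by its letters, but it encodes a partner of meiotic recombinases and no proteasome part, so 47 members remain when roles are described. The rule uses only the symbol and the listing in both tables, but it was set with earlier results of these data known.

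All libraries came from NMRI wild type mice, and polyadenylated RNA was sequenced. The tissue libraries are of neocortex, from mice of postnatal day 10 (P10) or 49 (P49). For the culture libraries, neocortical cells were dissociated from E16.5 embryos and grown for 14 days. They then served as controls, were exposed to 50 uM DRB for 2 hours, or were exposed to DRB together with 20 uM bicuculline, the latter for 1 hour. DRB stops RNA polymerase II from elongating transcripts. Bicuculline is an antagonist of GABA-A receptors. A first DRB group is in one table with the tissue and control libraries, and a second DRB group is in another table with the bicuculline group. Each of the 6 groups has 2 libraries. Nothing in the labels says that these came from separate animals or cultures, and the P10 columns share a tissue code. P-values therefore measure only how far these samples spread, which may be technical. Some column names of the first DRB group mention TTX, a sodium channel blocker that the labels do not give.

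The proteasome is the protease that degrades proteins tagged with ubiquitin. Its barrel-shaped core has outer rings of alpha subunits and inner rings of beta subunits, of which Psmb5, Psmb6 and Psmb7 carry the active sites. In cells exposed to interferon these are replaced by Psmb8, Psmb9 and Psmb10, which form the immunoproteasome. A cap with an ATPase ring at its base and a lid with a deubiquitinase feeds substrates into the core, and other activators can take its place. In neurons the proteasome takes part in synaptic remodelling and in the turnover of regulatory proteins.

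The measure is the number of reads that cross an exon-exon junction, summed over the distinct junctions of a gene and given as CPM, the counts divided by the TMM-scaled library total. Libraries of the first table held 49987335 to 74647659 such reads, and those of the second 62913370 to 70406878. Members took 0.627% to 0.759% of them in the first and 0.851% to 0.867% in the second table. CPM are relative within a library, and fewer cells of a type and less RNA per cell cannot be told apart. Neuron markers were present in every group: 5 genes summed to 3850 and 3890 CPM at P10, 5010 and 4950 at P49, 1470 and 1540 in control cultures and 3130 and 2970 in the first DRB group. Oligodendrocyte markers (6 genes) summed to between 870 and 2690 CPM in tissue between 60.2 and 128 in control and first DRB cultures (1 marker at 0 in DRB library 1), and, over the 5 of them tested there, between 40.1 and 49.2 in the second table. Microglia markers (10 genes) summed to between 331 and 345 CPM in tissue and between 73.8 and 96.5 in control and first DRB cultures, with Tmem119 at 0 in control library 1 and in both libraries of the first DRB group. The 9 tested in the second table summed to between 36.6 and 49.2 CPM.

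Since a gene with many introns gives more junction reads, members were compared with each other by CPM per junction, the median over the junctions in regular use. The constitutive core beta genes stood at a median of 36.5 CPM per junction at P10, with Psmb7 highest at 41.5 and Psmb5 lowest at 8.46. For Psmb5, the chymotrypsin-like active site, only 1 of 3 annotated introns was in regular use, so its level rests on 1 junction. Core alpha genes had a median of 25.6 CPM per junction at P10, and Psma7 was highest at 33.2. At the other end, the testis-type alpha subunit Psma8 had 0.0816, from 159 reads over all 8 libraries of the table.

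The base ATPases were tightly grouped at P10, between 19 CPM per junction for Psmc4 and 26.5 for Psmc3. Among the non-ATPase subunits the range at P10 ran from 9.97 for Psmd11 to 32.5 for Psmd8. Assembly chaperones, which help build the ring and cap but leave the finished particle, were lower: a median of 4.67 CPM per junction, from 2.8 for Psmd10 to 6.95 for Psmd9. Activator genes ran from 3.23 for Psme4, whose long transcript encodes PA200, to 12.4 for Psme3, which encodes PA28 gamma. The immunoproteasome genes were far apart from each other, with 0.187 for Psmb9 and 6.07 for Psmb10.

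**Figure D1:**
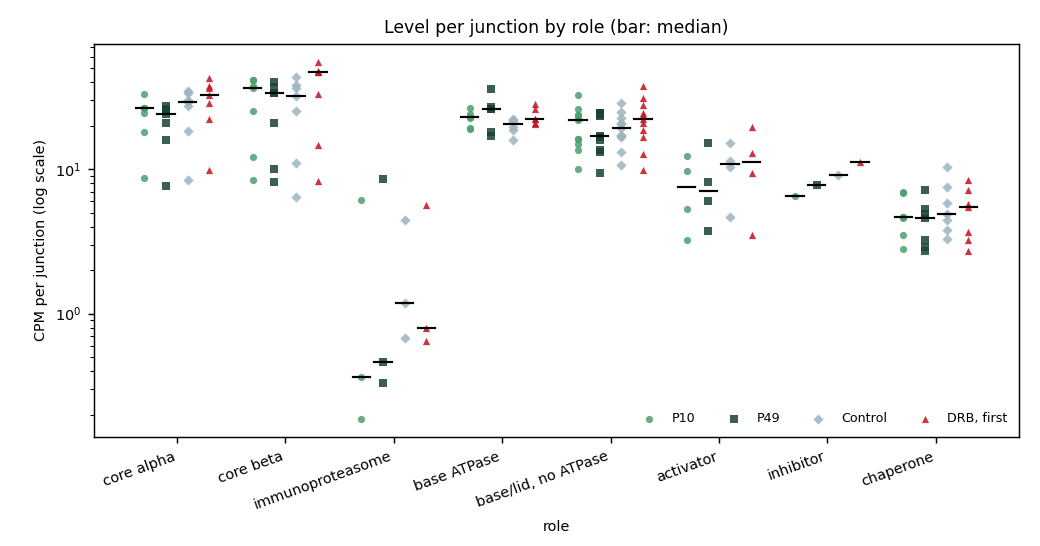
CPM per junction (log axis) of each member by role in P10, P49, control and first DRB libraries, with points as group means of 2 libraries and bars as the median of the role; Psma8 and Psmc3ip are left out. The 6 ATPase genes lie between 19 and 26.5 at P10, the core beta genes between 8.46 (Psmb5) and 41.5 (Psmb7), and Psmb9 lowest at 0.187.

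**Figure D2:**
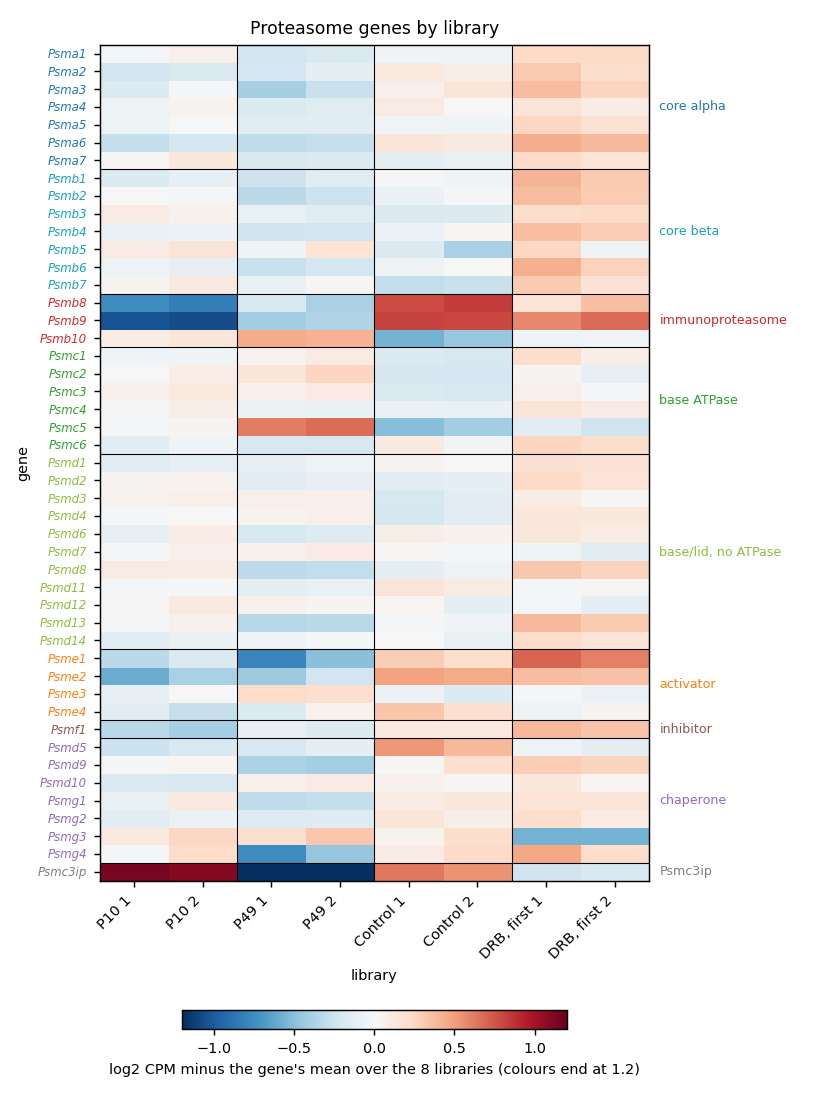
Log2 CPM minus the gene's mean over the 8 libraries of the first table, for 47 members in rows grouped by role (Psma8 left out) and libraries in columns; colours end at 1.2 on either side. Libraries of one group look alike, and the rows of Psmb8, Psmb9, Psme1, Psme2 and Psmc5 hold the strongest contrasts between tissue and culture.

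Promoter sequence was examined as a description only, and no link between promoter motifs and the changes given further on was tested. RefSeq promoter entries (GRCm38.p6, from 250 bases before to 50 after the start) were matched for 39 of the 47 proteasome members. The ETS core CCGGAA, searched on both strands, occurred in 20 of the 39, or 51.3%, against 16.7% of all genes with a promoter entry and 24.3% of such genes in the first table. Shares are of genes, and a gene counts once where any of its promoters holds the motif. The antioxidant response core TGACNNNGC, the kind of element bound by the transcription factors Nfe2l1 and Nfe2l2, occurred in 6 of 39, or 15.4%, against 14% of all genes and 16.2% of genes in the first table. CCAAT was found for 33.3% of members, 41.1% of all genes and 41.8% of genes in the first table. CACGTG was found for 10.3%, 8.09% and 10.4% in the same order, and the palindromic NRF-1 motif for 5.13%, 1.07% and 1.75%. Of the 5 motifs, the antioxidant response core, CCAAT and CACGTG were thus no more frequent among members than among genes in the first table. These matches are letters in a window and not shown to be sites. Windows before the start of 5 members, with the match in capitals (TTCCGG is the ETS core, and a match that ends in GTCA the antioxidant response core, on the opposite strand), show both cores in their surroundings.
Psmc5, ETS core, chr11:106256050-106256135, plus strand: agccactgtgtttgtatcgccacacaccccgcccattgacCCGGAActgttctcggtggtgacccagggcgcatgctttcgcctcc
Psmd2, ETS core, chr16:20651587-20651651, plus strand: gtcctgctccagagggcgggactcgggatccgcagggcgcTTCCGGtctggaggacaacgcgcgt
Psmd11, ETS core, chr11:80428565-80428614, plus strand: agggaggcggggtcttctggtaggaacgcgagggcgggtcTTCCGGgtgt
Psmc6, ETS core, chr14:45329684-45329769, plus strand: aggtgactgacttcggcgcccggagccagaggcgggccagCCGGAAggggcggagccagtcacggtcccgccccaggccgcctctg
Psmc6, antioxidant response core, chr14:45329574-45329645, plus strand: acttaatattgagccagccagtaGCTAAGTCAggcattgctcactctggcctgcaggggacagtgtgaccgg
Psmb6, antioxidant response core, chr11:70525308-70525356, plus strand: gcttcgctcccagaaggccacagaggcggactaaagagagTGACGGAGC

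From P10 to P49 the standard core and cap genes changed little, while the ATPase gene Psmc5 and the 3 immunoproteasome genes rose. Of 48 members, 8 were higher and 17 lower at P49 in edgeR's quasi-likelihood test at an adjusted p of 0.05; the background over 15481 genes tested was 57.1% called, 28.2% higher and 28.9% lower. The median log2 change was -0.06 over the members and 0 over all genes tested. By role, 4 of 8 core alpha, 4 of 7 core beta and 4 of 11 non-ATPase genes fell and none of these rose, with every one of these falls at 0.40 or less on the log2 scale. The count of lower members was 11 without P49 library 1. Under scaling to total reads 7 members were higher and 22 lower.

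Psmc5, the ATPase subunit Rpt6 (chr11:106256154-106263120, GRCm38, plus strand), stood at 225 and 233 CPM at P10 and at 349 and 364 at P49. Both P49 libraries were above both P10 libraries, and the log2 change was 0.64 ± 0.053 (SE, n = 2 libraries per group; edgeR adjusted p = 1.3e-06). It parted from the other ATPases, of which only Psmc2 also rose, by 0.16 (edgeR adjusted p = 0.032), a call lost without P10 library 1, without P49 library 2 and under scaling to library size. Psmc3, Psmc4, Psmc6 and Psmc1 had log2 changes between -0.11 and 0.11 and did not pass the test.

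Psmb9, the immunoproteasome counterpart of Psmb6, had 0.951 and 0.934 CPM at P10 and 1.46 and 1.52 at P49, a log2 change of 0.66 ± 0.17 (edgeR adjusted p = 0.0059). Psmb8, the counterpart of Psmb5, had 2.1 and 1.98 CPM at P10 and 3.09 and 2.68 at P49, a log2 change of 0.50 ± 0.14 (edgeR adjusted p = 0.011). The Psmb8 call was lost without P49 library 1 (adjusted p = 0.087) and without P10 library 2 (adjusted p = 0.057). Psmb10, the counterpart of Psmb7, was far more abundant, with 48.9 and 50.8 CPM at P10 and 62.2 and 61.1 at P49, and rose by 0.31 ± 0.056 (edgeR adjusted p = 7e-04). In these genes the groups did not overlap, which adds no further support to the calls. Psmb5 itself had 8.52 and 8.84 CPM at P10 and 7.66 and 8.9 at P49, which overlap, and its log2 change was -0.07 ± 0.13 (edgeR adjusted p = 0.68).

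As a share of the constitutive counterpart, per junction, Psmb8 was 4.34% of Psmb5 in both P10 libraries and 6.71% and 4.79% at P49. Psmb5 rests on 1 junction and was the lowest core beta gene, so the size of this share is hard to set beside the others. Psmb9 was 0.478% and 0.517% of Psmb6 at P10 and 0.931% and 1.02% at P49. Psmb10 was 14.2% and 15% of Psmb7 at P10 and 24.1% and 22.1% at P49. All 3 shares were higher in both P49 libraries, and Psmb10 was the only one above 10% of its counterpart in tissue. Beside these, the summed microglia markers were 345 and 331 CPM at P10 and 340 and 342 at P49, with 1 of 10 called higher and 1 lower. All 6 oligodendrocyte markers rose, from sums of 1020 and 870 CPM to 2640 and 2690, and their part in any of these changes was not tested.

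Among the members that fell, Psmc3ip showed the strongest change, from 25 and 24.4 CPM to 4.47 and 3.65, a log2 change of -2.60 ± 0.11 (edgeR adjusted p = 6.2e-09). Of the proteasome genes proper, the chaperone gene Psmg4 went from 8.61 and 10.2 CPM to 5.25 and 6.38 (log2 change -0.70 ± 0.14, edgeR adjusted p = 0.0011). Psmd8, a lid subunit, went from 197 and 196 CPM to 148 and 150 (-0.40 ± 0.042, edgeR adjusted p = 1.1e-05). These falls were larger than the spread within each group.
Psme1, which encodes PA28 alpha, had 88.3 and 97.9 CPM at P10 and 63.8 and 77.9 at P49, a change of -0.40 ± 0.085 (edgeR adjusted p = 0.002). Its partner in the same ring, Psme2 (PA28 beta), had 21.7 and 24.9 CPM at P10 and 24.2 and 27.8 at P49, with overlapping groups and a change of 0.16 ± 0.083 that did not pass (edgeR adjusted p = 0.13). Psme1 per junction was 188% and 177% of Psme2 at P10 and 132% and 139% at P49. Psme4 had 167 and 151 CPM at P10 and 163 and 188 at P49, which overlap (0.15 ± 0.075, edgeR adjusted p = 0.12). Psme2 passed without P49 library 1 (adjusted p = 0.039) or P10 library 2 (adjusted p = 0.029), and Psme4 without P49 library 1 (adjusted p = 0.02) or P10 library 1 (adjusted p = 0.042). Psmd10, the chaperone also known as gankyrin, rose from 13 and 12.8 CPM to 15.3 and 15.7 (0.27 ± 0.08, edgeR adjusted p = 0.015), a call lost without P49 library 2 or P10 library 2.

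With TMM scaling, most proteasome genes were higher in cultures exposed to DRB than in control cultures. Of 48 members, 29 were higher and 6 lower in the edgeR test; over 15481 genes tested, 62.7% were called, 29.7% higher and 33% lower. The median log2 change was 0.20 over the members and -0.03 over all genes tested. All 7 constitutive core beta genes rose, by 0.36 to 0.53, as did all 6 base ATPases, by 0.16 to 0.32, 6 of 8 core alpha and 7 of 11 non-ATPase genes. This split leans on the scaling: relative to total reads, where the median of all genes was -0.21, 13 members were higher and 9 lower and the median of the 47 proteasome genes was 0.02. Under that scaling 6 of 7 core beta genes, 1 of 6 ATPases and none of the core alpha genes were still called higher, and Psma2, Psmc2 and Psmd1 changed sign.

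Psmb7, the trypsin-like active site, had 231 and 235 CPM in control cultures and 352 and 318 with DRB. Both DRB libraries lay above both controls, with a log2 change of 0.53 ± 0.057 (edgeR adjusted p = 8.7e-06). Psmb1, a core beta subunit with no active site of its own, had 215 and 210 CPM in controls and 290 and 272 with DRB, a change of 0.40 ± 0.051 (edgeR adjusted p = 3.2e-05). Psmb5 rose from 7.08 and 6.09 CPM to 9.42 and 7.68 (0.38 ± 0.13, edgeR adjusted p = 0.027), a call lost without DRB library 1, without control library 2 and under scaling to total reads. In the cap, the lid subunit Psmd8 had 171 and 176 CPM in controls and 230 and 222 with DRB (0.38 ± 0.042, edgeR adjusted p = 1.1e-05). Psmc5 rose from 160 and 171 CPM to 209 and 193 (0.28 ± 0.053, edgeR adjusted p = 7e-04), which did not pass under scaling to total reads (0.10, adjusted p = 0.13).

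**Figure D3:**
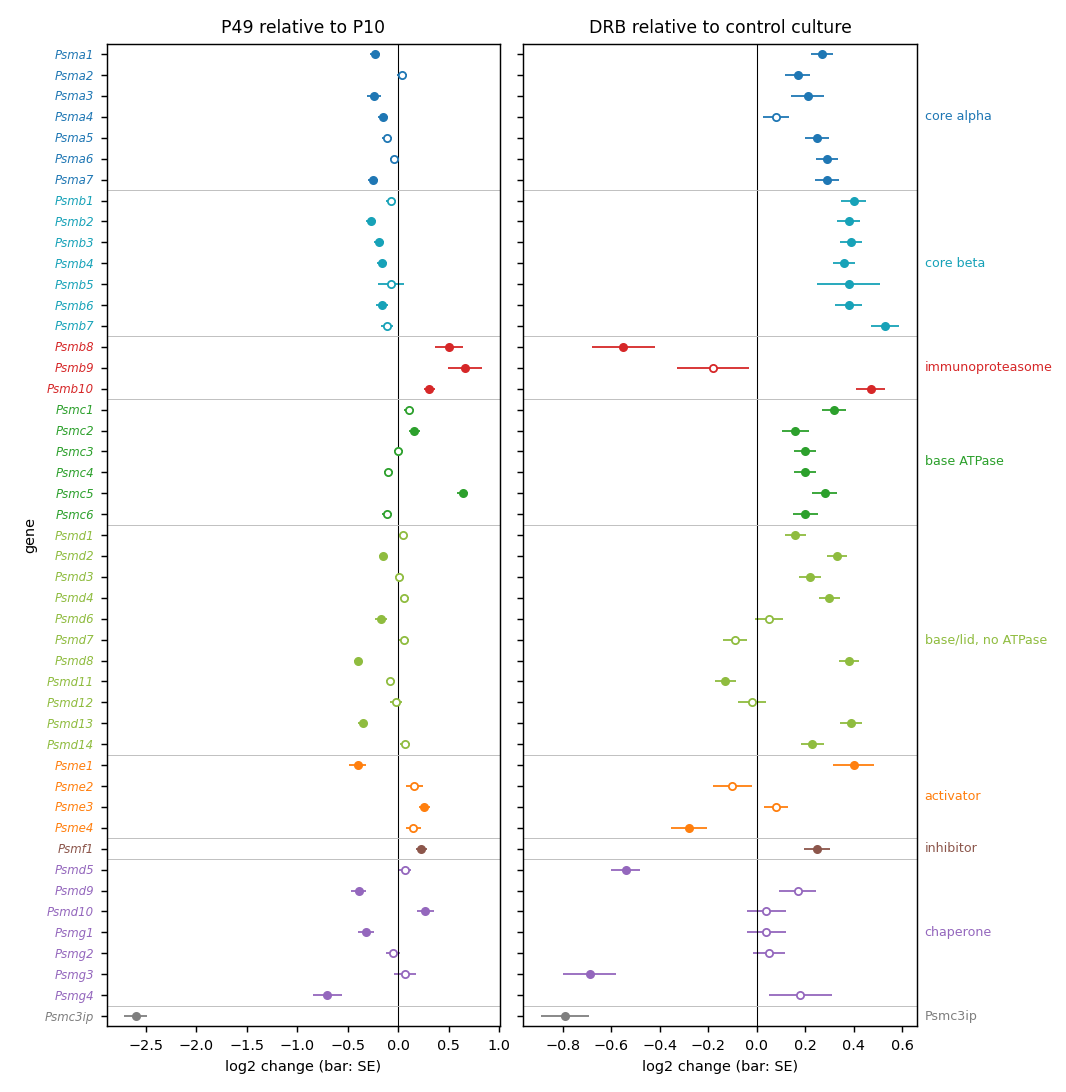
Log2 change ± SE of each member between P49 and P10 and between the first DRB group and control cultures, by role, with filled points for members called by edgeR (2 libraries per group; the x axes differ; Psma8 left out). Core beta and ATPase genes lie right of 0 with DRB, while in tissue Psmc5, Psmb8 and Psmb9 stand to the right and Psmg4 and Psmc3ip to the left.

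Of the 6 members lower with DRB, 5 are proteasome genes: Psmb8, Psmd5, Psmd11, Psmg3 and Psme4. Psmd11 had 112 and 108 CPM in controls and 99 and 102 with DRB (log2 change -0.13), a call lost with DESeq2. Psmd5, a chaperone of the base, had 86.6 and 78.9 CPM in controls and 58.1 and 55.6 with DRB, a log2 change of -0.54 ± 0.06 (edgeR adjusted p = 1.1e-05). Psmg3, a chaperone of the alpha ring, went from 8.64 and 9.75 CPM to 5.69 in both DRB libraries (-0.69 ± 0.11, edgeR adjusted p = 0.00019). In both chaperone genes the groups were clear of each other, which again only restates the calls. Psme4 had 230 and 210 CPM in controls and 175 and 187 with DRB (-0.28 ± 0.075, edgeR adjusted p = 0.006), a call lost without control library 1 (adjusted p = 0.069) or DRB library 1 (adjusted p = 0.067). Psmc3ip went from 17 ± 0.78 CPM (SD, n = 2) to 9.81 ± 0.25 (-0.79 ± 0.099, edgeR adjusted p = 2.8e-05).

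The immunoproteasome genes did not move together with DRB. Psmb8 fell from 6.04 and 6.29 CPM to 3.95 and 4.5 (-0.55 ± 0.13, edgeR adjusted p = 0.0038), and Psmb10 rose from 31 and 33.5 CPM to 44.2 and 44.9 (0.47 ± 0.058, edgeR adjusted p = 2.8e-05). Psmb9 had 3.43 and 3.41 CPM in controls and 2.92 and 3.13 with DRB, a change of -0.18 ± 0.15 that did not pass (edgeR adjusted p = 0.32). Psme1 rose from 136 and 127 CPM to 179 and 168 (0.40 ± 0.084, edgeR adjusted p = 0.0014), whereas Psme2, with 45.6 and 44.4 CPM in controls and 42.3 and 41.8 with DRB, did not pass (-0.10 ± 0.082, edgeR adjusted p = 0.32; -0.28, adjusted p = 0.01, under scaling to total reads). Cell type markers differed between the same libraries. All 5 neuron markers were higher with DRB (sums of 1470 and 1540 CPM in controls, 3130 and 2970 with DRB), 5 of 8 endothelial and mural markers were lower and 2 higher (875 and 737 against 228 and 230), and 1 of 10 microglia markers was higher. Their part in the changes of the proteasome genes was not tested.

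The second DRB group, in the other table and scaled separately, can be set beside these values without a test. Psmb7 was at 393 and 376 CPM there, Psmd5 at 79.6 and 84.1, Psmg3 at 5.01 and 5.53, Psmb8 at 3.22 and 3.74 and Psmb10 at 26.9 and 27. Psmb7, Psmb8 and Psmg3 were thus on the same side of the control cultures as in the first DRB group. Psmd5 was within the range of the controls, and Psmb10 was below them rather than above. Psme1, at 194 CPM in both libraries, was above the controls as in the first DRB group. Psme2, at 56.3 and 59.9 CPM, was above them rather than below. The other members were not counted by side.

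**Figure D4:**
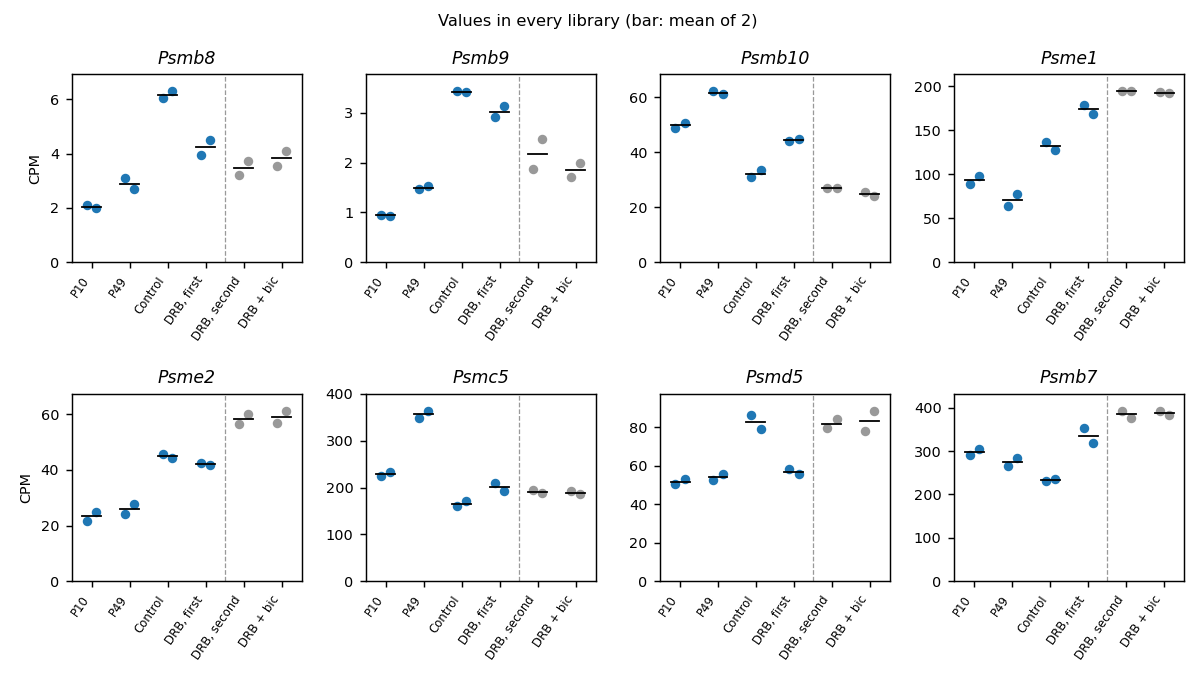
CPM in every library for 8 members in all 6 groups, with bars at the mean of 2 libraries; groups in grey right of the dashed line belong to the second table and were scaled separately. Psmc5 is highest at P49, Psmb8 and Psmb9 are highest in control cultures, and Psmb7 lies between 376 and 393 CPM in all 4 libraries of the second table.

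Adding bicuculline to DRB changed no member detectably. None of 47 members tested was called by edgeR, none had an unadjusted p under 0.05, and DESeq2 called 0; over 14395 genes tested edgeR called 0.201%, of which 0.181% higher and 0.0208% lower. Log2 changes lay between -0.24 (Psmb9, SE 0.19) and 0.13 (Psmb8, SE 0.14). Psmb8 had 3.22 and 3.74 CPM with DRB alone and 3.56 and 4.08 with bicuculline, and Psmb9 had 1.88 and 2.48 against 1.71 and 1.99, with overlapping groups in both genes. Psmb10 was lower in both bicuculline libraries, at 25.7 and 24.1 CPM, with a change of -0.11 ± 0.062 (edgeR adjusted p = 1). For abundant members the estimate was tighter: Psmb7 had 393 and 383 CPM with bicuculline and a change of 0.01 ± 0.037, and Psmc5 had 192 and 186 CPM and -0.02 ± 0.039. Psme1 (193 and 192 CPM), Psme2 (56.8 and 61.2), Psme4 (184 and 199) and Psmb5 (7.5 and 7.17) had changes between -0.01 and 0.02. All of these cells had received DRB.

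Control cultures held relatively more Psmb8, Psmb9, Psme1 and Psme2 than tissue of either age, and less Psmb10 and Psmc5. Of 48 members 14 were higher and 15 lower than at P10, against 74% of all genes called, 37% in each direction; against P49, 26 were higher and 11 lower, with 76.4% of all genes called, 39.5% higher and 37% lower. Under scaling to total reads, with medians of all genes at 0.11 and 0.20, the counts were 23 higher and 9 lower against P10 and 33 higher and 6 lower against P49. Psmb3, Psmc4, Psmd14 and Psmd2 then changed sign against P49. Both comparisons use the same control libraries and contrast culture, age at dissection and cell makeup at once, which cannot be told apart.

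Psmb9, at 3.43 and 3.41 CPM in controls and 0.951 and 0.934 at P10, was higher by 1.86 ± 0.16 (edgeR adjusted p = 6.8e-07) than at P10 and by 1.2 ± 0.15 (adjusted p = 2e-05) than at P49. Psmb8 was higher by 1.60 ± 0.14 (edgeR adjusted p = 8.1e-07) and by 1.09 ± 0.14 (adjusted p = 1.7e-05). Psme2 was higher by 0.95 ± 0.083 (edgeR adjusted p = 7.6e-07) than at P10 and by 0.79 ± 0.083 (adjusted p = 3.3e-06) than at P49, and Psme1 by 0.50 ± 0.084 (adjusted p = 0.00022) and 0.89 ± 0.085 (adjusted p = 1.5e-06). In these 4 genes every control library was above every tissue library, which restates the calls and adds no further support. Psmb10 went the other way, with -0.63 ± 0.058 (edgeR adjusted p = 1.2e-06) against P10 and -0.93 ± 0.058 (adjusted p = 2.9e-08) against P49. Psmb8 per junction was 17.6% and 19.8% of Psmb5 in control cultures and 7.87% and 11.4% in the first DRB group, set against at most 6.71% in tissue. Psmb5 stood at only 6.44 CPM per junction in controls, where the core beta median was 31.9, so the size of this share depends on that low value.

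Genes that share the antigen presentation route with the immunoproteasome were read from a list of 13. From P10 to P49, 8 were higher and 1 lower, against 28.2% and 28.9% of all genes. Of the same 13, 11 were higher and 1 lower in control cultures than at P10 (37% of all genes in each direction), and 10 higher and 1 lower than at P49 (39.5% and 37%). With DRB 9 were lower (10 under scaling to total reads) and none higher, against 33% and 29.7% of all genes. Tap1, a peptide transporter subunit, had 3.23 and 3.42 CPM at P10 and 15.6 and 16.6 in control cultures, a log2 change of 2.28 ± 0.11 (edgeR adjusted p = 4.8e-09). Irf1, an interferon-responsive transcription factor, had 4.54 and 4.14 CPM at P10 and 24.1 and 23.3 in controls (2.45 ± 0.13, edgeR adjusted p = 9.3e-09). Cell type markers moved in both directions in controls against P10. Microglia markers were called lower for 7 of 10 and higher for 2, and astrocyte markers higher for 4 of 5 tested and lower for 1. Endothelial and mural markers were lower for 5 of 8 and higher for 2. All 5 neuron markers, all 6 oligodendrocyte markers and 2 of 3 precursor markers were lower. The part of cell makeup in the change was not tested.

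Among the other members, Psmc5 was lower in control cultures by -0.47 ± 0.053 (edgeR adjusted p = 7.7e-06) against P10 and by -1.11 ± 0.053 (adjusted p = 3.3e-09) against P49. Psmc2, another ATPase, had 217 CPM in both control libraries and 276 and 298 at P49 (-0.40, edgeR adjusted p = 4.5e-05). The remaining always-reported active site gene, Psmb5, was lower than at P10 by -0.40 ± 0.13 (edgeR adjusted p = 0.017), a call lost without control library 2 (adjusted p = 0.14) and under scaling to total reads (adjusted p = 0.061). Psmd5 was higher by 0.68 ± 0.06 (edgeR adjusted p = 9e-07) against P10, and Psme4 by 0.47 ± 0.075 (adjusted p = 0.00013). Psmc3ip was lower than at P10 (-0.54 ± 0.095, edgeR adjusted p = 0.00029) and higher than at P49 (2.06 ± 0.11, adjusted p = 5.7e-09). Psma8 lay at 0.0927 and 0.117 CPM in controls and 0.317 and 0.587 at P10, and its call (edgeR adjusted p = 0.011) was lost without either control library or P10 library 2.

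Proteasome parts and assembly factors without a Psm name were counted from a list of 10. Beside the counts that follow, 29.7% of all genes were higher and 33% lower with DRB, and 28.2% and 28.9% from P10 to P49. With DRB 5 rose and none fell (2 and 2 under scaling to total reads), and from P10 to P49 3 rose and 2 fell (2 and 4 under that scaling). Usp14, a deubiquitinase of the cap, had 243 and 230 CPM in controls and 360 and 351 with DRB (0.59 ± 0.046, edgeR adjusted p = 7.4e-07), and Pomp, the core maturation factor, had 167 and 168 against 219 and 208 (0.35 ± 0.052, adjusted p = 0.00011). Of 18 genes for ubiquitin, its activation and its shuttling, 11 rose and 1 fell with DRB (7 and 5 under scaling to total reads), and 4 rose and 6 fell from P10 to P49. Of 13 regulators of proteasome gene transcription, 2 rose and 5 fell with DRB (1 and 9 under scaling to total reads), and 5 rose and 2 fell from P10 to P49. Several of these counts, such as 5 of 13 lower with DRB, lie near the share over all genes. Nfe2l1, which drives proteasome genes when the proteasome is impaired, rose from 45.5 and 42.9 CPM at P10 to 70 and 68.6 at P49 (0.65 ± 0.055, edgeR adjusted p = 1.7e-06) and did not pass with DRB (-0.13 ± 0.056, adjusted p = 0.06). Nfe2l2, the oxidative stress factor, fell from 65.9 and 56.3 CPM in controls to 23.3 and 19.2 with DRB (-1.52 ± 0.11, edgeR adjusted p = 3.5e-07). With bicuculline no gene of these lists was called.

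Use of single junctions within a gene is a measure apart from the gene's total. From P10 to P49 none of 470 junctions in 46 members passed edgeR's diffSpliceDGE test, which sets a junction against the others of its gene; 8 had an unadjusted p under 0.05, the lowest adjusted p was 0.19, and 1.96% of 163563 junctions were called over all genes. Without P49 library 1 or P10 library 1 the count was 1. With bicuculline none of 465 passed, 8 had an unadjusted p under 0.05, and 0.00273% of 146694 were called over all genes. Between DRB and control cultures 9 of 470 junctions differed in use, a smaller share than the 2.31% called over all genes. The count was 4 without DRB library 2, 5 without control library 1, 6 without control library 2 or without DRB library 1, and 10 without any 1 of the tissue libraries. Of the 9, both junctions listed under Psma2 are annotated introns of the overlapping gene AW209491 on the same strand and are not read as Psma2; 7 remain, in Psme4, Psmd1, Psmd11 and Psma4.

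The strongest of the 7 lies in exon 43 of Psme4 (chr11:30865434-30865589, GRCm38, plus strand), a coding exon of 156 bases. The junction at chr11:30865494-30874117 is not annotated and joins the next exon from a donor inside exon 43, so that 60 bases are kept and the last 96, a whole number of codons, are left out. The exon is printed as the annotated transcript has it, with the first 2 bases left out, a GT, in capitals.
Psme4, exon 43: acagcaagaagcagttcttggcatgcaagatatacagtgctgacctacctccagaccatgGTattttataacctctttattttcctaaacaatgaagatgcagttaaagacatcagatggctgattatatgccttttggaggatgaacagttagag
Of the reads that end at the next exon, 10 of 272 (3.68%, Wilson 95% interval 2.01 to 6.63) and 1 of 296 (0.338%) used the inner donor in control cultures, and 50 of 236 (21.2%) and 47 of 250 (18.8%) did with DRB. Both DRB libraries were far above both controls, with a change in use of 2.32 (edgeR adjusted p = 1.9e-07). This change and the changes in use that follow are natural logs, not log2. The second DRB group, not tested against controls, had 9.24% and 15.3%, the bicuculline group 14.7% and 8.12%, both P49 libraries 0.372% and 0.317%, and P10 0% in both. The total of Psme4 over all its junctions was lower with DRB, as given above.

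Psme4 also held an extra exon of 61 bases that the annotation lacks, a length that is not a multiple of 3. The junction into it, chr11:30823155-30827008, took 26.5% and 26.7% of reads sharing its ends in controls and 40.6% and 42.5% with DRB. The change in use was 0.66 on the natural log scale (edgeR adjusted p = 0.0077). The junction out of the extra exon, chr11:30827070-30830349, took 24.4% and 30.3% in controls and 41.5% and 46.1% with DRB. Here the change in use was 0.72 on the same scale (edgeR adjusted p = 0.0016). Tissue libraries lay between 20.9% and 35.1% for these junctions, and the second DRB and bicuculline groups between 36.8% and 46.7%. The groups did not overlap, but the first call was lost when any of the 4 control and DRB libraries was left out, and the second without control library 1 or DRB library 2.

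Psmd11, a lid subunit, used a donor within an annotated intron (chr11:80444400-80445241) in 0 of 448 and 6 of 535 reads (1.12%) in controls. With DRB the shares were 7.04% and 7.27%, a change in use of 2.44 on the natural log scale (edgeR adjusted p = 5.3e-07). The second DRB group had 4.88% and 5.24%, the bicuculline group 4.59% and 3.47%, and tissue at most 1.29%. Psmd1, the large scaffold of the base, held an unannotated exon of 94 bases, also not a multiple of 3. Its outgoing junction, chr1:86125785-86126455, took 0.102% and 0.491% in controls and 2.09% and 2.92% with DRB (2.16, edgeR adjusted p = 9.4e-06). Its incoming junction, chr1:86118627-86125690, took 0.61% and 0.818% in controls and 1.67% and 2.66% with DRB (1.2, edgeR adjusted p = 0.02), a call lost when any 1 of the 4 libraries was left out. In Psma4, a core alpha gene, an annotated junction led to an alternative leader exon of the 5′ end (chr9:54950904-54951343). Of the reads sharing its ends, it took 12 of 116 (10.3%) and 14 of 102 (13.7%) in controls. With DRB it took 41 of 98 (41.8%) and 35 of 120 (29.2%). The change in use was 0.98 on the natural log scale (edgeR adjusted p = 0.022), a call also lost without any 1 of the 4 libraries. The P10 libraries had 17.5% and 11.4% at this junction and the P49 libraries 19.7% and 9.9%. These shares cover few of the gene's reads. Over the 8 libraries, the annotated junction with the same start held 690 reads and all Psma4 junctions 67399.

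**Figure D5:**
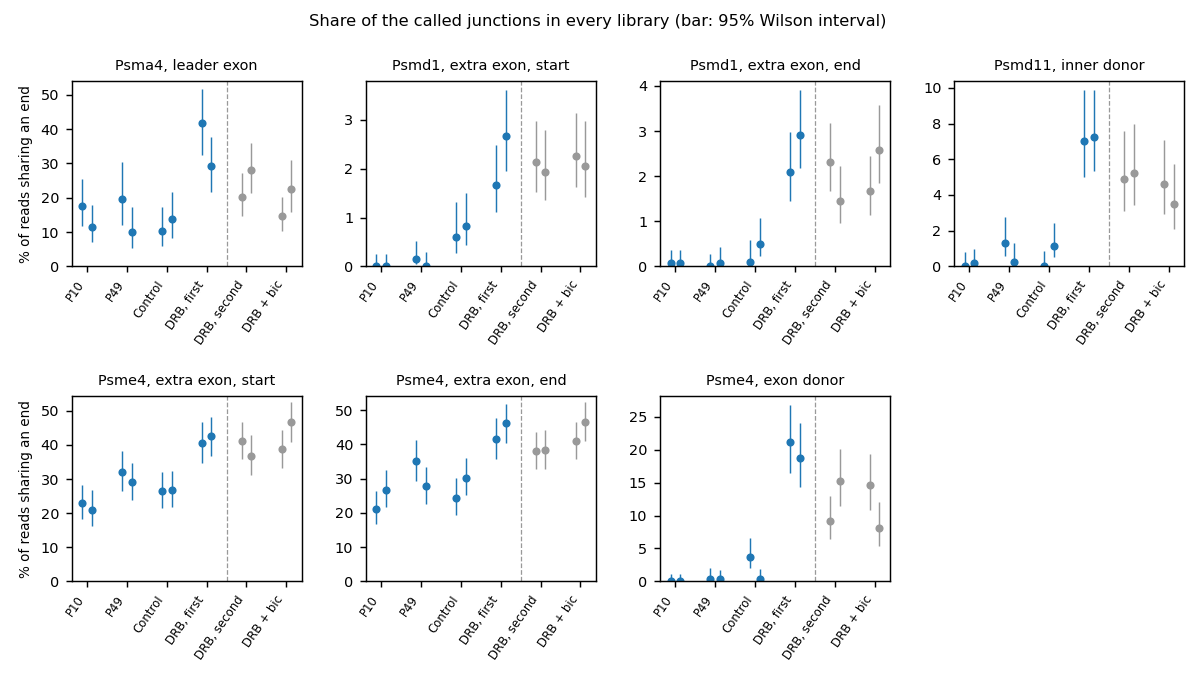
Percent of reads sharing an end that use each of the 7 junctions, in every library, with Wilson 95% intervals that cover counting error only; the second DRB and bicuculline groups belong to the second table. The Psme4 exon donor and the Psmd11 donor are at or under 3.68% in tissue and control cultures and stand between 3.47% and 21.2% in every DRB-exposed library.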

How the data were processed

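Per the submitters' processing notes, the authors used STAR 2.4.0f1 and the mm10 build (GRCm38); the sources used here do not give how junction reads were counted. Libraries were made with the TruSeq Stranded mRNA kit, per the labels. The deposited values used are raw counts of reads spliced at each intron, per the file headers. Header names outnumber row cells (67 against 64 and 39 against 36), so columns were read by number. Columns of the control, P49 and second DRB groups were mapped by elimination, and library numbers follow column order only. A further 72 per-library columns with other measures were not used, and intron retention is not reported here.

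Distinct coordinates were summed per symbol; reads without a symbol (0.418% to 0.484% in the first table, 0.525% to 0.531% in the second) were left out. Junctions were matched to GENCODE release 21 introns and promoters to RefSeq. Genes were tested with edgeR 4.0.16 in R 4.3.3 (quasi-likelihood, TMM, filterByExpr, two-sided, Benjamini-Hochberg over all genes, 0.05), the 8 libraries of the first table sharing 1 estimate of spread, and junctions with diffSpliceDGE. DESeq2 1.42.0, no filter, fits on only the groups compared, a higher read minimum, annotated junctions only and leaving out each library were alternatives. Scaling to total reads was added after seeing the data. Scripts were tested on simulated counts. Intervals cover counting error only. Junctions in regular use are those with at least 20% of the reads of the gene's most used one.

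Values per library are given for up to 3 members per direction with the largest change among those called at a mean log2 CPM of at least 3, up to 2 per direction by adjusted p, Psmb5, Psmb8, Psmb9, Psmb10, Psme1, Psme2 and Psme4 always, and the highest and lowest of a role. Members and lists were chosen with earlier results of these data known. The second-table name letters, which match no replicate number of the labels, entered an alternative as a block.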

Additional observations from a re-analysis of the deposited data

How the results depend on the processing

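With scaling to total reads, 7 members were higher and 22 lower from P10 to P49; with DRB 22 were called, 13 of them higher; against P10 control cultures had 23 higher and 9 lower, and against P49 6 lower. Log2 changes then turned sign for Psma2 (-0.01), Psmc2 (-0.02) and Psmd1 (-0.02) with DRB, and for Psmb3 (0.11), Psmc4 (0.16), Psmd14 (0.16) and Psmd2 (0.15) between control cultures and P49; the shift of the median of all genes under this scaling is part of its construction. Leaving out 1 library at a time gave 20 to 25 called members from P10 to P49 (6 to 9 higher, 11 to 17 lower), 29 to 35 with DRB (25 to 29 higher, 4 to 6 lower), 24 to 29 for control cultures against P10 (10 to 14 higher, 12 to 15 lower) and 35 to 37 against P49 (24 to 26 higher, 10 to 11 lower). Without P49 library 1 there were 11 lower from P10 to P49. Junctions called with DRB numbered 4 to 10 under leave-one-out, 4 with at least 50 reads and 3 among annotated junctions only, the last 2 settings testing fewer junctions; from P10 to P49 they numbered 0 to 1, and with bicuculline 0. With the replicate block on the name letters of the second table, 0 members were called, as without the block; in the first table no paired analysis was possible because the columns carry no replicate number. Over all members and alternatives, 586 values with DRB stayed on their side of the threshold, 29 lost a call and 5 gained one; the corresponding numbers from P10 to P49 were 590, 23 and 11. Low read numbers limit Psma8, Psmb9 and the unannotated junctions most.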
